A study of Mus musculus with 8 samples.

Results

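The Toll-like receptors are described here across the cells of the adult mouse liver, in a Smart-seq2 atlas of 3491 single cells. The genes were chosen by name, as the 10 members *Tlr1* to *Tlr9* and *Tlr13*, out of 46517 genes in the count table. *Tlr11* and *Tlr12* are given with the pathway genes. Cells were dissociated from livers that had not been perfused, sorted into 384-well plates and sequenced with single reads of 50 bases. The authors assigned them to immune, endothelial, mesenchymal and epithelial classes and, on the same transcriptomes, to multilevel clusters, to finer community clusters (written with a final c) and to an annotation.

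Every cell came from an adult male or female mouse of the C57BL6/J strain or of a heterozygous reporter strain, the oldest a year of age. Macrophages were sorted on an antibody against CD68, a macrophage protein, and the immune class also holds other leukocytes. Endothelial cells were sorted on CD31 or VE-cadherin, or on a *Cldn5*-driven GFP, and cholangiocytes, the cells that line bile ducts, on EPCAM. Mesenchymal cells were sorted on GFP driven by *Pdgfra*, *Pdgfrb* or *Acta2*, or on PDGFRα, so the cells collected are those in which these promoters or proteins are active. Hepatocytes were taken as living cells without selection. The numbers of cells therefore reflect the sort and not the makeup of the liver. Each class has a male and a female pool, which makes 8 samples: 255 and 396 immune cells, 655 and 451 endothelial cells, 998 and 339 mesenchymal cells, and 358 and 39 epithelial cells. No label names the mouse, so the spread between the pools of a class joins sex, animals and plates, and p-values measure that spread only.

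Toll-like receptors are membrane proteins that recognise molecules made by microbes or released from damaged cells. Some sit at the cell surface and bind bacterial lipids and proteins, and others sit in endosomes and bind nucleic acids. Most signal through the adaptor MYD88, and TLR3 through TICAM1 (also called TRIF), towards NF-κB and interferon regulatory factors. The liver receives blood from the gut by the portal vein, and Kupffer cells, its resident macrophages, and sinusoidal endothelial cells take up material from that blood.

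Counts per cell, spike-ins included, ranged from 50042 to 1143895 with a median of 233696, and no cell name occurred in more than 1 pool. All female mesenchymal cells came from 1 plate, and 297 of the 396 female immune cells from another. The immune pools differed in makeup: Kupffer cells were 45.1% of the male and 89.4% of the female pool, B cells 22.4% of the male pool and absent from the female pool, and cells annotated as monocytes 21.6% and 0.505%. Marker genes were compared with the labels. The 8 Kupffer markers summed to 24330 CPM (counts scaled to the total of their sum) in annotated Kupffer cells, and the 4 B cell markers to 8818 CPM in annotated B cells. The cells annotated as monocytes held 3802 CPM of Kupffer markers, led by *C1qb* (1227), 2756 of dendritic and 1864 of monocyte-derived macrophage markers. Annotated Kupffer cells held 60.96 CPM of the last list. The lists differ in their number of genes, so their sums are not on one scale. The cholangiocytes held more CPM of hepatocyte markers (4308, led by *Alb*) than of their own (2705). Counts of markers of another class were common in some pools. At least 20 counts of a leukocyte or Kupffer marker were found in 347 of 1106 endothelial cells, mostly *Fcer1g* (262 cells) and *Clec4f* (91 cells), while *Laptm5* reached this limit in 30, *Tyrobp* in 20 and *Ptprc* in 7 of them. They were also found in 28 of the 39 female epithelial cells, all by *Clec4f*. Whether endothelial cells transcribe *Fcer1g* themselves was not tested. Cells with such counts are called cells that held RNA of another class below. The name stands for the marker counts and not for a tested origin of the RNA.

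The receptors lie on 7 chromosomes of the mouse genome (GRCm38, GENCODE vM21 models). *Tlr1* (chr5:64924679-64933563) and *Tlr6* (chr5:64952031-64960097) are neighbours on the minus strand. *Tlr7* (chrX:167304929-167330558) and *Tlr8* (chrX:167242696-167264329) are also neighbours on the minus strand, while *Tlr13* (chrX:106143204-106160493) lies elsewhere on that chromosome on the plus strand. *Tlr2* (chr3:83836272-83841767, minus), *Tlr4* (chr4:66827584-66930284, plus), *Tlr5* (chr1:182954788-182976044, plus), *Tlr3* (chr8:45395665-45411080, minus) and *Tlr9* (chr9:106222598-106226883, plus) stand alone. *Tlr3* overlaps an antisense gene, *Gm45542*, and Smart-seq2 reads carry no strand, so their reads cannot be told apart where they overlap. This concerns 288 of the 5436 stretches of 50 bases in *Tlr3* transcripts.

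*Tlr1* and *Tlr6* are near copies in part of their coding sequence, which bears on every value of either gene. The coding sequences, of 2385 and 2418 bases, were 72.4% identical, and the longest stretch shared by both was 229 bases long. It spans bases 1468 to 1696 of the *Tlr1* and 1507 to 1735 of the *Tlr6* coding sequence (chr5:64925537-64925765 and chr5:64953828-64954056), all exonic. A read of 50 bases that falls inside it cannot be assigned to either gene, and it is shown for that reason.
Tlr1 and Tlr6, shared coding run: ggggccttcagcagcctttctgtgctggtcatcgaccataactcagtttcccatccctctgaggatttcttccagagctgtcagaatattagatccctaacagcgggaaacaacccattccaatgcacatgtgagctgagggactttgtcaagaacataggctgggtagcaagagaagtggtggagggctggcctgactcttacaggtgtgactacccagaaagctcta
Of all stretches of 50 bases in its transcripts, *Tlr1* shares 15.4% with other genes and *Tlr6* 12.3%, mostly with each other (454 stretches). *Tlr2*, *Tlr5*, *Tlr7*, *Tlr8*, *Tlr9* and *Tlr13* share none. Counts of *Tlr1* and *Tlr6* are thus uncertain where reads fell into the shared part, and the setting for such reads is not given in the sources used here.

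RefSeq promoter sequences (GRCm38.p6, the 250 bases before a transcript start) were at hand for 8 of the 10 members. They were searched on both strands for 4 short motifs. The first, GAGGAA, is a core that ETS-family factors such as PU.1 can bind. It was found at *Tlr8*, *Tlr9*, *Tlr13* and 1 of the 2 *Tlr1* starts, not at *Tlr2*, *Tlr3*, *Tlr5* or *Tlr6*, and in 23.3% of all 32851 promoter windows of this length. The second, a pair of GAAA words 2 bases apart as in interferon-regulated genes, occurred 2 times at 1 of the *Tlr6* starts, and 2.98% of all windows hold it. The third, the NF-κB motif GGGANTTCC, occurred at *Tlr2* (1.43% of all windows), and the fourth, the TATA box TATAAA, at *Tlr6* and *Tlr8* (12.4%). The sequences for *Tlr9* (chr9:106222348-106222597, plus strand), *Tlr13* (chrX:106143025-106143203, plus strand) and *Tlr2* (chr3:83841768-83841858, minus strand) are shown up to the start of the gene model, with motif matches in capitals, as examples of these matches. A match is a description of letters and not a measured binding site.
Tlr9 promoter: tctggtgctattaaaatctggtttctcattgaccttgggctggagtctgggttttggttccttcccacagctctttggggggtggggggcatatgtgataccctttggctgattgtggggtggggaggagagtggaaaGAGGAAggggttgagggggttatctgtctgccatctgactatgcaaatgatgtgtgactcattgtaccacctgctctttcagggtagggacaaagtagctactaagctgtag
Tlr13 promoter: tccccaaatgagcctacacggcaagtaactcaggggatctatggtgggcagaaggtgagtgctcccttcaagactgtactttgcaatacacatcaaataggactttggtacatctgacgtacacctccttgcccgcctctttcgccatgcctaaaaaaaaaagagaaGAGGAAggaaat
Tlr2 promoter: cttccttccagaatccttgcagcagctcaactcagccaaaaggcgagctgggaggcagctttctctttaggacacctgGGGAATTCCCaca

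The first question was in which cell class each receptor is transcribed. In the immune class 8 of the 10 receptors were higher than in the other classes: *Tlr1*, *Tlr2*, *Tlr4*, *Tlr6*, *Tlr7*, *Tlr8*, *Tlr9* and *Tlr13*. *Tlr3* did not pass the test in any class, and *Tlr5* was higher in epithelial cells. Summed counts of each class and pool, 8 sums in all, entered edgeR's quasi-likelihood test. Calls needed a Benjamini-Hochberg adjusted p under 0.05 over all genes tested and a log2 difference of 1 or more in either direction. The difference sets the mean of log levels of 1 class against that of the other 3. Of all 24046 genes tested, 13.2% were called for immune cells (7.92% higher). No receptor was called for endothelial cells by edgeR, where 8.28% of all genes were called. An unadjusted p under 0.05 was found for 3 of 10, against 22.8% of all genes, and DESeq2 called 3 of 10, against 18.7% of all genes. 3 were called for mesenchymal cells, *Tlr1*, *Tlr8* and *Tlr9*, all lower (11.8% of all genes). The *Tlr1* call held in the 15 alternatives run, whereas *Tlr8* was lost in 8 and *Tlr9* in 9 of them, and leaving out 1 pool left between 1 and 3 calls. There were 3 calls for epithelial cells, *Tlr5* higher and *Tlr2* and *Tlr4* lower (12.4% of all genes). Of the 15 alternatives, *Tlr4* was lost in 6, *Tlr5* in 2 and *Tlr2* in 1. Between pairs of classes, 23 of 60 tests of a member were called against 8.89% over all genes. Of these, 20 set immune cells against another class, and the other 3 were *Tlr2* and *Tlr5* between endothelial and epithelial cells and *Tlr1* between mesenchymal and epithelial cells. Those 3 calls were lost in 3 (*Tlr2*), 6 (*Tlr5*) and 9 (*Tlr1*) of the 15 alternatives.

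**Figure D1:**
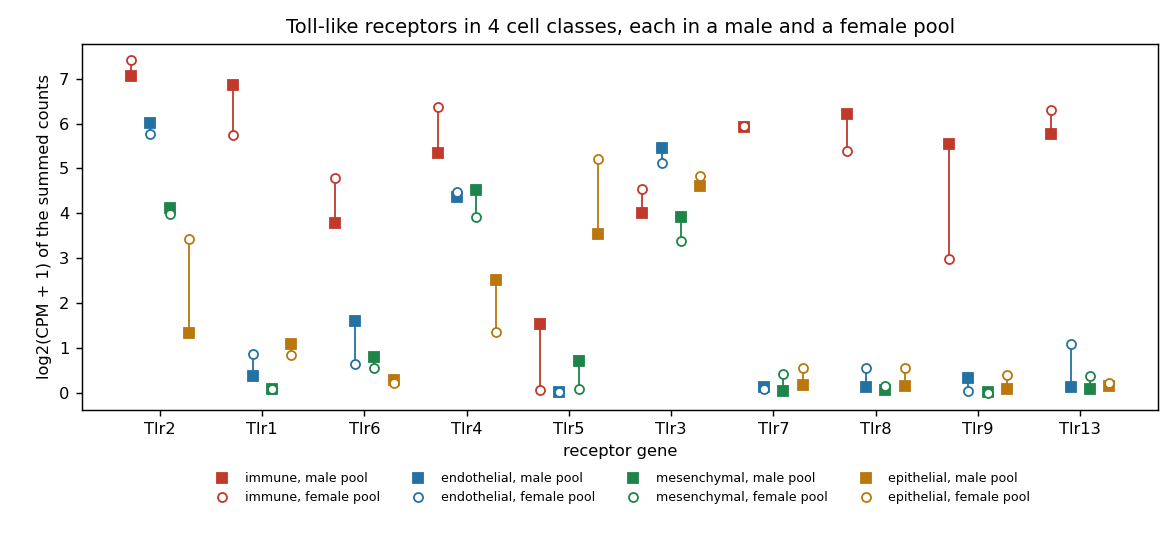
Level of each receptor in the 4 classes, as log2(CPM + 1) of the summed counts, with a filled square for the male and an open circle for the female pool of a class joined by a line. For *Tlr1*, *Tlr6*, *Tlr7*, *Tlr8*, *Tlr9* and *Tlr13* both immune pools stand apart from the 6 other pools, while *Tlr2*, *Tlr3* and *Tlr4* are seen in all classes and *Tlr5* is highest in both epithelial pools.

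*Tlr2*, whose protein pairs with TLR1 or TLR6 to bind bacterial lipopeptides, had the highest level of the 10 in the immune class. It reached 133 (male) and 169 CPM (female) in the immune pools. Endothelial pools held 63.2 and 53.9 CPM, mesenchymal pools 16.3 and 14.7 CPM, and epithelial pools 1.52 and 9.69 CPM. The classes did not overlap, with the order immune, endothelial, mesenchymal, epithelial. The immune class was higher than the other classes by 3.28 ± 0.53 (SE) on the log2 scale (adjusted p = 0.0059). Without the cells that held RNA of another class it was 2.64 (adjusted p = 0.060). Neighbours in that order did not pass the test (adjusted p = 0.29, 0.22 and 0.24), whereas endothelial cells exceeded epithelial cells by 3.49 ± 0.80 (adjusted p = 0.032). That last call was lost in 3 of 15 alternatives, over which the difference ranged from 1.95 to 5.27.

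*Tlr1*, a partner of *Tlr2*, stood at 115 (male) and 52.9 CPM (female) in the immune pools, against 0.0615 to 1.13 CPM in the 6 other pools. The difference was 8.08 ± 0.60 (adjusted p = 0.00027). *Tlr6* was lower, with 12.7 and 26.6 CPM in immune pools, 2.04 and 0.552 CPM in endothelial pools and at most 0.733 CPM in the mesenchymal and epithelial pools (log2 difference 5.28 ± 0.74, adjusted p = 0.0031). The order of the pools differed between these partners of *Tlr2*: *Tlr1* was higher in the male and *Tlr6* in the female immune pool. In the mesenchymal class *Tlr1* was lower than in the other classes, with 15 and 7 counts in the pools (adjusted p = 0.0043).

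*Tlr4*, the receptor for lipopolysaccharide of Gram-negative bacteria, was spread over 3 classes. Immune pools held 39.8 and 82.2 CPM, endothelial pools 19.7 and 21.1 CPM, mesenchymal pools 21.9 and 14.03 CPM, and epithelial pools 4.69 and 1.56 CPM. Endothelial and mesenchymal pools overlapped (log2 difference 0.07 ± 0.73, adjusted p = 0.99). Immune cells exceeded the mean of the other classes by 2.62 ± 0.54 (adjusted p = 0.016). This call was lost in 3 of 15 alternatives: without the female immune pool (log2 difference 1.89), without the female endothelial pool and within plates. Of the pairs of classes only immune against epithelial cells was called, at 4.34 ± 0.84 (adjusted p = 0.015). The epithelial value rests on few cells, since 93.2% of its 442 counts came from 1 cell.

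*Tlr3*, the receptor for double-stranded RNA, was present in every class. The endothelial pools were highest, at 42.9 and 33.8 CPM, followed by the epithelial pools at 23.6 and 27.5 CPM, the immune pools at 15.2 and 22.5 CPM and the mesenchymal pools at 14.1 and 9.39 CPM. Endothelial pools stood above all others and mesenchymal pools below all others, and the immune pools stayed under the epithelial ones. No pair of classes differed by the test (adjusted p from 0.18 to 0.79), the largest difference being 1.59 ± 0.60 between endothelial and mesenchymal cells.

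*Tlr5*, the receptor for flagellin, was highest in the epithelial class. It stood at 10.7 (male) and 36.3 CPM (female) in the epithelial pools, above the 6 other pools at 1.88 CPM or less (log2 difference 7.22 ± 1.29, adjusted p = 0.0093). Of the 232 female epithelial counts, 72.8% came from 1 cell, and the pools differ in makeup, with 201 of the 358 male cells annotated as hepatocytes and 37 of the 39 female cells as cholangiocytes. The endothelial pools held 1 count each, so no fold against them is given. The difference of 7.22 averages over these pools too, so it depends on the prior count of the fit and is no bound. When plates were set as a block, the difference was 3.13 and no longer passed (adjusted p = 0.27), and without the cells that held RNA of another class it was 6.22 (adjusted p = 0.082).

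*Tlr7* and *Tlr8*, neighbouring genes whose proteins bind single-stranded RNA in endosomes, were immune in both pools. *Tlr7* gave 60.2 and 60.5 CPM in immune pools and at most 0.469 CPM elsewhere (log2 difference 8.79 ± 0.88, adjusted p = 0.00074). *Tlr8* gave 73.0 and 40.7 CPM and at most 0.470 CPM elsewhere (8.50 ± 0.83, adjusted p = 0.00069). *Tlr13*, which recognises bacterial ribosomal RNA, gave 53.1 and 78.3 CPM in immune pools (8.22 ± 0.95, adjusted p = 0.0013). The next highest pool was the female endothelial one, at 1.12 CPM from 124 counts. Differences of this size are set against sums of few counts, so the fitted values depend on the prior count of the fit and are no bounds.

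*Tlr9*, the receptor for unmethylated CpG DNA, differed between the immune pools, at 46.0 CPM in males and 6.85 CPM in females. Both were above the other classes, which held 45 and 3 counts in endothelial pools, 6 and 2 in epithelial pools and 2 and 0 in mesenchymal pools (adjusted p = 0.0023). The 0 counts among the 339 female mesenchymal cells allow a level of up to 0.0264 CPM, from 3 counts, and a share of cells with a count of up to 0.885%, from 3 cells. No receptor differed between the sexes over the 4 classes (0 of 10 called and 1 of 10 at an unadjusted p under 0.05, against 5 of 24046 genes called, 0.0208%, and 7.92% at an unadjusted p under 0.05).

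Per kilobase of transcript, which allows levels of different genes to be compared, *Tlr2* led the immune class at 51.7 CPM per kb, and *Tlr1* followed at 22.6 CPM per kb, over both pools. *Tlr13* (16.1), *Tlr7* (14.8), *Tlr8* (14.7) and *Tlr4* (11.99 CPM per kb) formed a middle group, ahead of *Tlr9* (6.10), *Tlr6* (5.77) and *Tlr3* (3.80 CPM per kb). *Tlr5* was lowest at 0.151 CPM per kb. The order differed between the pools: in the female pool *Tlr13* (18.2) stood above *Tlr1* (15.8) and *Tlr9* (1.97) below *Tlr6* (7.13) and *Tlr3* (4.32 CPM per kb), while in the male pool *Tlr1* (34.3), *Tlr8* (20.3) and *Tlr9* (13.2) stood above *Tlr13* (12.3) and *Tlr4* (7.17 CPM per kb). Outside the immune class the order changed: in endothelial cells *Tlr2* (19.8 CPM per kb) was followed by *Tlr3* (7.56) and *Tlr4* (3.64 CPM per kb), and the other 7 were at 0.392 CPM per kb or less.

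Plates of one class varied as well. Over the 8 plates with at least 5 immune cells *Tlr7* ranged from 21.2 to 128 CPM with a median of 65.6 CPM, and *Tlr9* from 0.284 to 498 CPM with a median of 34.3 CPM, the wider range of the pair. Each of the other 8 was at 0 on at least 1 of these plates, with *Tlr8* reaching 923.5 CPM on a plate of 10 immune cells and *Tlr13* 286 CPM on the same plate. On the plate of 90 male immune cells *Tlr13* had 2 counts, at 0.0779 CPM, against 97.1 CPM on another of 70 cells. Over the 15 plates with at least 5 endothelial cells *Tlr2* ranged from 0 to 180 CPM and *Tlr3* from 0 to 59.9 CPM.

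Markers of other classes accompanied part of these traces. Summed counts cannot tell fewer cells with a transcript from less RNA per cell. Of the 140 endothelial counts of *Tlr13*, 133 lay in the 347 endothelial cells with leukocyte or Kupffer markers, as did 56 of the 67 counts of *Tlr8*, and 92 of the *Tlr13* counts came from 1 cell. The levels of *Tlr2*, *Tlr3* and *Tlr4* in the 759 endothelial cells without such markers were 61.4, 40.9 and 20.8 CPM, against 56.2, 36.3 and 19.3 CPM in those with them. Without all cells that held RNA of another class, the 3 epithelial calls were lost and 14 calls were made over the pairs of classes in place of 23. The male epithelial pool had few such cells (6 of 358).

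Single cells gave the share in which each receptor was counted. In the immune class at least 1 count was found in 54.5% of 651 cells for *Tlr2*, 45.01% for *Tlr7*, 40.3% for *Tlr4* and 39.9% for *Tlr1*. *Tlr13* was counted in 37.2%, *Tlr8* in 37.0%, *Tlr6* in 20.1%, *Tlr3* in 19.97%, *Tlr9* in 9.68% and *Tlr5* in 0.768% of them. These shares join 2 unlike pools. *Tlr2* was counted in 34.9% of the male cells (exact 95% interval 29.1% to 41.1%) and 67.2% of the female cells (62.3% to 71.8%), *Tlr7* in 26.3% and 57.1%, *Tlr4* in 19.2% and 53.8%, and *Tlr1* in 30.6% and 45.96%. *Tlr13* (17.3%, and 198 of the 396 female cells) and *Tlr8* (18.04% and 49.2%) differed in the same way, and in males *Tlr1* stood above *Tlr7* and *Tlr4*. These intervals cover counting error only, and amplified reads without molecular identifiers are not independent molecules. In the endothelial class *Tlr2* was counted in 24.5%, *Tlr3* in 21.8% and *Tlr4* in 13.6% of 1106 cells. The other 7 ranged from 0.181% to 5.43%, *Tlr1* being the highest of them at a median of 1 count in its cells. Endothelial shares were low for *Tlr7* (1.72%), *Tlr8* (2.35%) and *Tlr13* (2.35%), genes seen almost wholly in immune cells. Whether these counts came from endothelial transcripts or from RNA of other cells was not tested. Median depths were 244363 and 194855 counts in the endothelial and 239864 and 265575 in the immune pools.

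**Figure D2:**
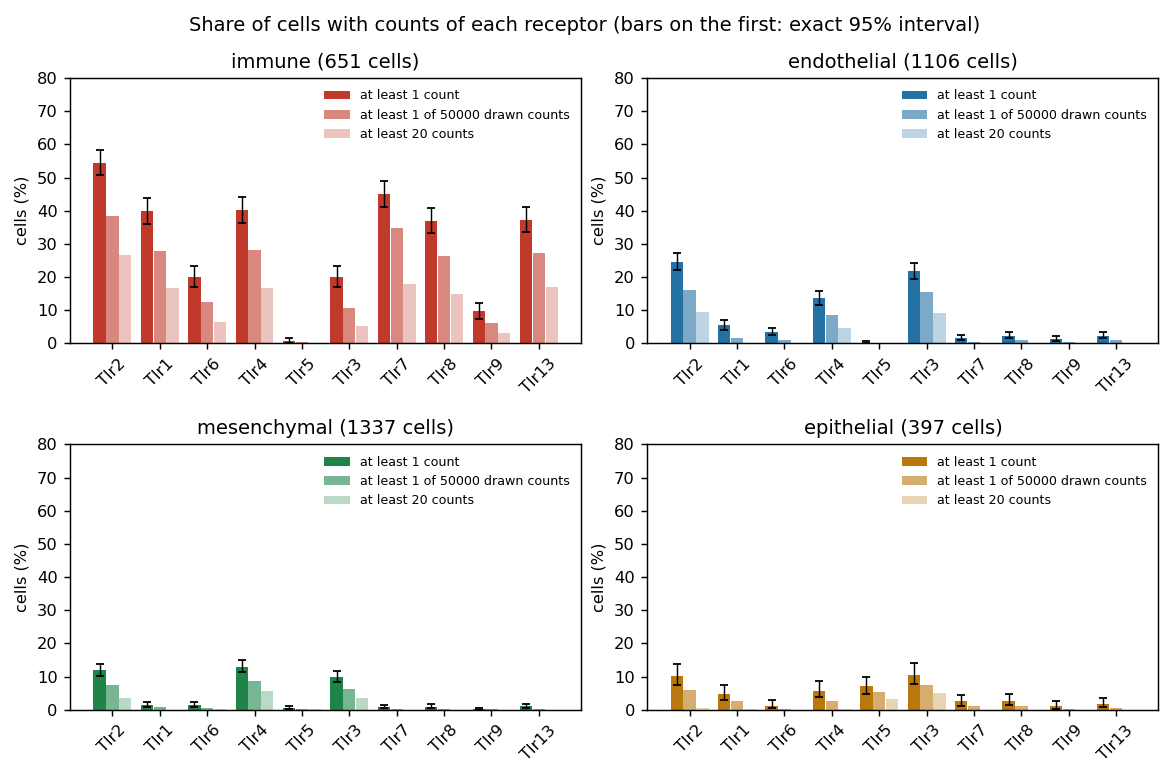
Share of cells (%) with counts of each receptor, by class: at least 1 count (dark, with its exact 95% interval), at least 1 count after each cell was thinned to 50000 counts, and at least 20 counts (light). In immune cells the shares at 20 counts range from 0.154% (*Tlr5*) to 26.7% (*Tlr2*), and *Tlr2*, *Tlr3* and *Tlr4* remain the most frequent receptors of endothelial and mesenchymal cells at every limit.

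Thinned to 50000 counts per cell, which left out 1 male and 2 female immune cells, the immune share of *Tlr2* was 38.4%, and at the authors' detection limit of 20 counts it was 26.7%. The same limits gave 34.7% and 17.97% for *Tlr7*, and 10.7% and 5.22% for *Tlr3*. A count of *Tlr3* in an immune cell was usually small, with a median of 2 counts over 130 cells, whereas cells with *Tlr2* held a median of 15 counts. Several receptors were often counted in the same immune cell. An immune cell held 3.05 of the 10 receptors on average, with a median of 3 and a maximum of 8, and 9.22% of cells held none. The pools stood apart, at 1.71 in male and 3.91 in female immune cells. The median number of genes of any kind counted per cell differed too, at 3710 in male and 5412 in female immune cells. The part of this gap in the receptors per cell and in the shares of cells by pool was not tested. An endothelial cell held 0.768 on average, an epithelial cell 0.479 and a mesenchymal cell 0.415, and 45.5%, 66.3% and 66.0% of them held none. Within the immune class, Kupffer cells held 3.41 on average and B cells, all male, 1.32. The Kupffer value was 1.57 in the 115 male and 4.01 in the 354 female cells, so within males it stood near that of B cells. Kupffer clusters ranged widely, with 1.60 in #i1c (111 cells) and 4.69 in #i10c (168 cells).

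The next comparison was within the immune class. In Kupffer cells 9 of the 10 receptors stood at 6.39 CPM or more, while *Tlr1* led in B cells and *Tlr9* and *Tlr7* in cells with dendritic markers. In 469 annotated Kupffer cells *Tlr2* stood at 161 CPM (121 in males and 171 in females, from 39 and 240 positive cells), *Tlr4* at 82.0 CPM and *Tlr13* at 78.0 CPM. *Tlr7* (61.5 CPM), *Tlr1* (58.4), *Tlr8* (55.2), *Tlr6* (27.5) and *Tlr3* (22.8 CPM) followed, and *Tlr9* stood at 6.39 CPM. *Tlr5* was at 0.0527 CPM. In Kupffer cells *Tlr8* was higher in the male (114 CPM) than in the female pool (41.9 CPM), while *Tlr4* was 61.5 and 86.7 CPM and *Tlr6* 26.4 and 27.8 CPM. Over the whole immune class the share of cells with *Tlr8* went the other way, at 18.04% in males and 49.2% in females. A plate of 10 male immune cells held 1653 of the 4962 male immune counts of *Tlr8*. Of the 199 Kupffer cells with *Tlr1*, 64.8% also had *Tlr2*, and of the 114 with *Tlr6*, 61.4% did, against 279 of 469 for all Kupffer cells. These shares join pools with *Tlr2* in 39 of 115 male and 240 of 354 female Kupffer cells. They therefore do not show whether the receptors go together within a pool.

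**Figure D3:**
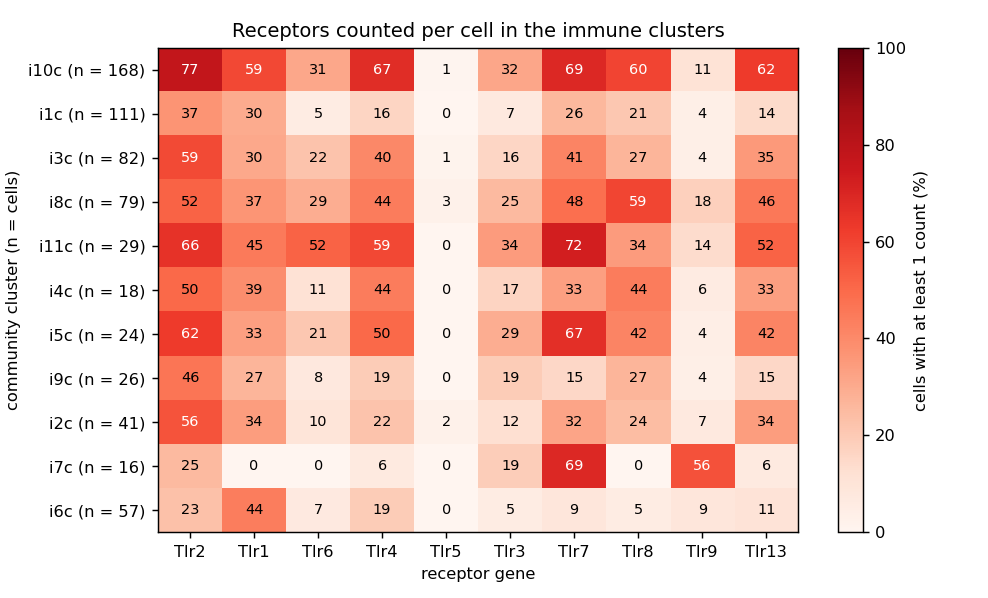
Share of cells (%) with at least 1 count of each receptor in the community clusters of the immune class. Cluster #i10c, of Kupffer cells, has the highest share for *Tlr2* (77.4%), #i7c shows *Tlr7* (68.8%) and *Tlr9* (56.3%) but no cell with *Tlr1*, *Tlr6* or *Tlr8*, and in #i6c, of B cells, *Tlr1* leads (43.9%).

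The 16 cells of #i7c, all male, had 6824 CPM of the 4 dendritic markers, led by *Siglech*, and 118 CPM of the Kupffer markers. They held 307 CPM of *Tlr9*, from 9 cells, and 199 CPM of *Tlr7*, from 11 cells. No count of *Tlr1*, *Tlr6* or *Tlr8* was found in them, and 1 count each of *Tlr4* and *Tlr13*. A 0 in 16 cells allows a share of cells with a count of up to 18.8%, from 3 cells, which is no limit on cells that express the gene. Of all immune counts of *Tlr9*, 50.4% lay in these cells, and 49.4% of those came from 1 cell. Against the other community clusters, *Tlr9* in #i7c was called at 6.0 ± 1.92 (adjusted p = 0.042, with 4.34% of all genes called). This arm is 1 sum of 16 male cells, assumed to vary like the sums of the other clusters, and its *Tlr7* level was not called (2.18 ± 2.0, adjusted p = 1). The *Tlr9* call was lost with the sex pool as a replicate block (adjusted p = 0.32), and without cells holding RNA of another class (adjusted p = 0.11). The clusters were made from the same transcriptomes, so these tests are not independent of the grouping.

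B cells (#i6c, 57 cells, all male, with 8818 CPM of B cell markers) had the highest *Tlr1* level of any cluster, at 227 CPM from 25 cells. *Tlr9* stood at 20.9 CPM, with 62.7% of its counts in 1 cell, and *Tlr2* at 20.4 CPM, with 94.7% in 1 cell. *Tlr4*, *Tlr13*, *Tlr8* and *Tlr3* were below 1 CPM in them. None of the 10 was called between the multilevel B cell cluster #i5 and the Kupffer clusters (4.78% of all genes called). The #i5 arm is 1 sum of 58 male cells, and in simulated data this comparison recovered 1% of 8-fold changes, so the lack of a call says nothing on whether the receptors differ. The log2 difference was 2.11 ± 1.56 for *Tlr1* (adjusted p = 0.83) and -6.63 ± 3.40 for *Tlr13* (adjusted p = 0.49), and no receptor had an unadjusted p under 0.05.

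The 41 cells of #i2c, with monocyte-derived macrophage markers at 2092 CPM (led by *Cx3cr1*) beside 5865 CPM of Kupffer markers, were nearly all male (39 cells). Their male pool held 298 CPM of *Tlr2*, 156 CPM of *Tlr1*, 128 CPM of *Tlr13* and 110 CPM of *Tlr8*. Further Kupffer cells (#i4c, 18 cells) held 228 CPM of *Tlr2* and 113 CPM of *Tlr8*, and *Tlr6* at 0.371 CPM. Of the receptors only *Tlr5* was called in #i2c (4.29% of all genes called), and in the multilevel cluster #i2 against Kupffer cells (2.87% of all genes called), and both calls rest on 127 counts of 1 cell.

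**Figure D4:**
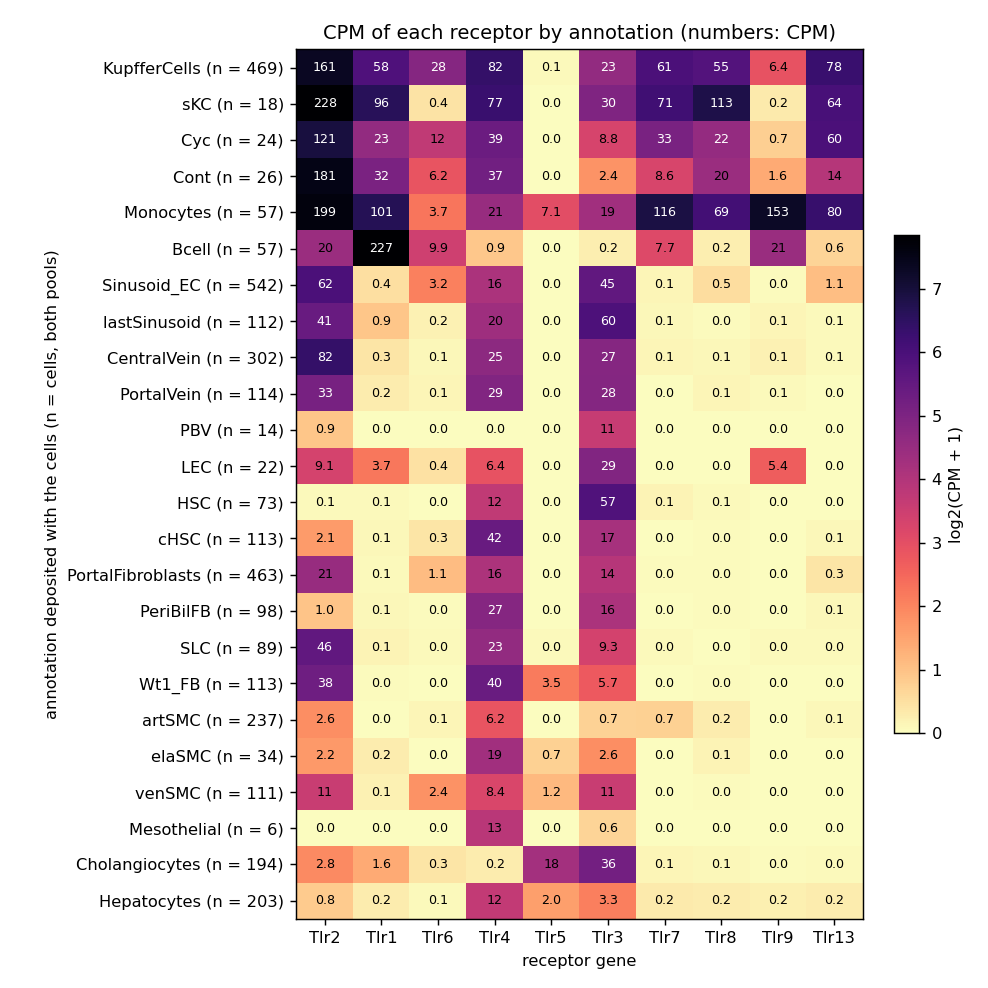
CPM of each receptor (columns) in the annotated cell types (rows, with the number of cells), from counts summed over both pools, with colour on the log2(CPM + 1) scale. *Tlr2*, *Tlr4* and *Tlr3* extend over stromal cell types, whereas *Tlr7*, *Tlr8* and *Tlr13* stay at 1.07 CPM or less outside the immune rows.

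In endothelial cells the question was whether the receptors follow the path of the blood from portal to central vein. *Tlr2* stood at 89.7 CPM in central vein cells (#e1, 96.3 in males and 81.3 in females) and 68.4 CPM in #e7 on the central side. It stood at 73.6, 54.9, 41.4 and 36.3 CPM in the sinusoidal clusters #e3, #e8, #e6 and #e5, and 29.2 CPM in portal vein cells (#e2, 30.4 and 28.2). The female pool of #e3, at 209 CPM, has 6 cells. In #e1 both pools were above both pools of #e2, but no cluster was called for *Tlr2*, the central vein cells against the other clusters differing by 1.06 ± 0.98 (adjusted p = 0.95, with 1.41% of all genes called). Lymphatic cells (#e4, 22 cells) held 9.06 CPM, nearly all from 1 cell, and the 14 cells of the peribiliary vessels 0.92 CPM.

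*Tlr3* was highest in sinusoidal clusters, at 62.4 CPM in #e5 (72.2 and 8.94 in the pools) and 60.2 CPM in #e6 (58.6 and 61.0). The pools of #e5 were far apart, and no cluster was called for this gene either. *Tlr4* was between 6.36 CPM (#e4) and 28.3 CPM (#e7), and its pools lay close together in #e7 (29.4 and 27.5 CPM) and far apart in #e6 (48.4 and 6.55 CPM). Over all endothelial clusters 1 call was made among the 6 receptors that passed the filter on low counts. It was *Tlr9* in lymphatic cells, at 28 counts of 1 cell (6.80% of all genes called there). Of the 5 alternatives with a value, 1 lost this call and 1 turned its direction (log2 difference -2.92).

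**Figure D5:**
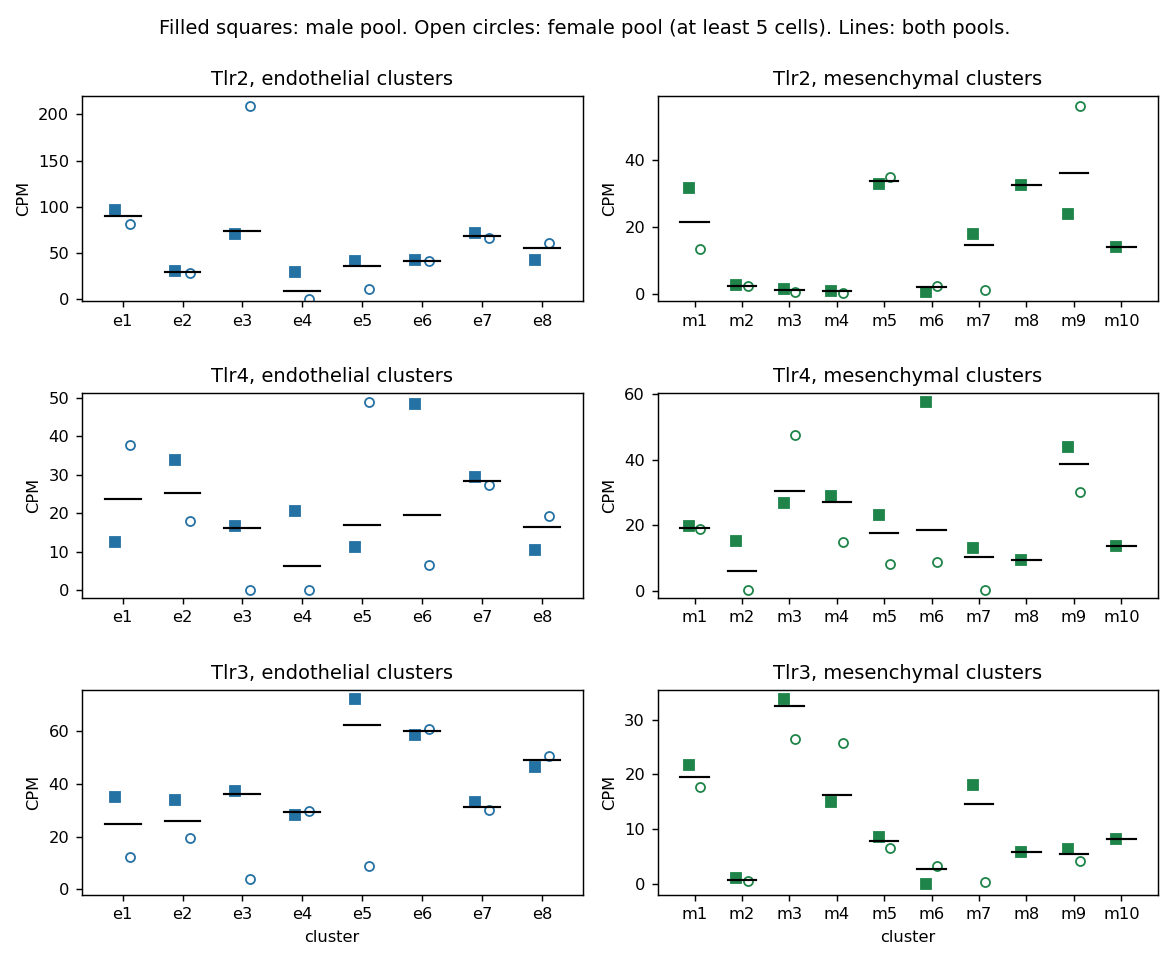
CPM of *Tlr2*, *Tlr4* and *Tlr3* in the multilevel clusters of endothelial (left) and mesenchymal (right) cells, with squares for male pools, circles for female pools of at least 5 cells and lines for both pools together. *Tlr2* is at 2.59 CPM or less in the mesenchymal clusters #m2, #m3, #m4 and #m6 over both pools, and *Tlr3* is highest in #m3 in both pools, in the female pool with 99.5% of its counts from 1 cell.

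Among mesenchymal cells *Tlr2*, *Tlr3* and *Tlr4* were the receptors above 1 CPM in the class as a whole. *Tlr2* was found in *Wt1*+ fibroblasts (38.3 CPM, 25.2 and 60.5 in the pools), in the cells annotated SLC (45.6 CPM, 43.3 and 50.3, the latter from 2 of 21 cells with 89.2% of the counts in 1) and in portal fibroblasts (21.4 CPM). In hepatic stellate cells (HSC), the vitamin A-storing mesenchymal cells along the sinusoids, it was at 0.0652 CPM, from 1 of 73 cells. *Tlr3* stood at 56.9 CPM in HSC (10 of 73 cells, 48.3 and 159 in the pools, the latter from 1 of 4 cells), 17.4 CPM in the cHSC annotation (22.97 and 0.166) and 5.75 CPM in *Wt1*+ fibroblasts. *Tlr4* stood at 40.7 and 44.6 CPM in the pools of cHSC, at 44.7 and 32.3 CPM in those of *Wt1*+ fibroblasts and at 8.13 and 62.05 CPM in those of HSC. Of the 268 female cHSC counts, 99.3% came from 1 of 22 cells. Arterial smooth muscle cells held 2.59 CPM of *Tlr2*, 0.653 CPM of *Tlr3*, and *Tlr4* at 15.2 and 0.504 CPM in the pools. Of the *Tlr3*, *Tlr2* and *Tlr4* levels none was called in any multilevel cluster. The nearest was *Tlr2* in #m9, which holds most *Wt1*+ fibroblasts, at 2.68 ± 0.84 (adjusted p = 0.086). The only calls were *Tlr6* in #m7, from 68 counts of 1 cell, and *Tlr5* in #m9, where 1 cell held 90.4% of the counts (2.29% and 4.18% of all genes called).

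In the epithelial class 2 of the 5 receptors tested, *Tlr3* and *Tlr5*, were called between cholangiocytes and hepatocytes, against 37.3% of all genes. That is near the share of all genes, so the count does not set the receptors apart. *Tlr3* was at 36.5 (male) and 28.2 CPM (female) in cholangiocytes, in 38 of 194 cells, and at 3.28 CPM in hepatocytes, in 4 of 203 cells. *Tlr5* was at 16.2 and 37.2 CPM in cholangiocytes, in 22 cells, and at 1.999 CPM in hepatocytes, in 6 cells. In female cholangiocytes 1 cell gave 67.05% of the 176 *Tlr3* counts and 1 cell gave 72.8% of the 232 *Tlr5* counts, and all but 2 hepatocytes were male. In males 1 plate, with 110 of the 157 cholangiocytes and 1 hepatocyte, gave 2022 of the 2053 *Tlr3* and 908 of the 909 *Tlr5* counts of cholangiocytes. The 47 male cholangiocytes of other plates held *Tlr3* counts in 3 cells and a *Tlr5* count in 1, so the male values rest on 1 plate. The part of the plate in the difference was not tested. Both were higher in cholangiocytes, by 3.52 ± 0.99 (adjusted p = 0.0073) and 5.85 ± 1.23 (adjusted p = 0.00067). Without the cells that held RNA of another class the differences were 2.84 and 4.34 and neither passed (adjusted p = 0.20 and 0.11), a setting that left out 28 of the 39 female epithelial cells. *Tlr4* in hepatocytes, at 11.9 CPM, came almost wholly from 1 cell (96.3% of its counts). Hepatocyte markers were at 4308 CPM in the cholangiocytes and 13100 CPM in the hepatocytes, and cholangiocyte markers at 2705 and 11.6 CPM. The part of hepatocyte RNA in the cholangiocyte values was not tested.

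Among the genes that work with the receptors, 15 of 45 on the list, chosen with earlier results of these data known, were higher in immune cells than in the other classes and none lower, against 13.2% called over all genes. Their median log2 difference was 1.02, and that of all genes 0.09. Of the accessory receptors, *Cd14*, which hands lipopolysaccharide to TLR4, was higher by 4.31 ± 0.34 (adjusted p = 0.00032), and *Cd180* and *Ly86*, which form a TLR4-like complex on B cells and macrophages, by 7.01 ± 0.92 and 7.81 ± 0.38. *Cd36* was also called (1.43 ± 0.38, adjusted p = 0.043), although its endothelial level (790 and 503 CPM) was above the immune level (183 and 153 CPM), since the test averages log levels over classes. *Ly96*, the MD-2 partner of TLR4, stood at 52.2 and 13.3 CPM in immune and 66.7 and 29.7 CPM in endothelial pools (0.57 ± 0.86, adjusted p = 0.77). *Lbp* had a difference of -0.99 ± 0.35 (adjusted p = 0.11).

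Of the chaperones, *Unc93b1*, which carries the nucleic acid receptors to endosomes, was at 1320 and 2129 CPM in immune pools and at most 146 CPM elsewhere (4.203 ± 0.41, adjusted p = 0.00066). *Cnpy3* was called at 1.25 ± 0.34, and *Hsp90b1* was not (0.43 ± 0.37, adjusted p = 0.55). Of the adaptors only *Ticam2*, which links TLR4 to TICAM1, was called (5.25 ± 0.64, adjusted p = 0.0017). *Myd88* was at 27.4 to 133 CPM in the other pools and at 135 and 224 CPM in the immune pools (1.23 ± 0.43, adjusted p = 0.11). *Ticam1* (0.15 ± 0.49), *Tirap* (0.99 ± 0.50) and *Sarm1* (1.55 ± 1.24) did not pass. Of the proteases that cut endosomal receptors, 3 of 4 were called, led by *Ctss* (7.56 ± 0.50) and with *Lgmn* and *Ctsb*. Among 15 kinases and ligases, *Ikbke* (3.18 ± 0.61) and *Irak4* (2.21 ± 0.47) were called, and among 5 transcription factors *Irf5* (4.17 ± 0.43) and *Irf7* (3.82 ± 0.32). *Pik3ap1* was the only one of 7 regulators called, at 5.02 ± 0.40, and its epithelial level (283 and 619 CPM) exceeded the immune level (167 and 197 CPM). The other receptors of the family, *Tlr11* and *Tlr12*, were both higher in immune cells, *Tlr12* at 159 and 153 CPM and *Tlr11* at 2.76 and 13.0 CPM. On the same list, 2 genes were higher and 5 lower in endothelial cells (8.28% of all genes called), 1 higher and 8 lower in mesenchymal cells (11.8%), and 3 higher and 3 lower in epithelial cells (12.4%) than in the other classes.

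Over the 30 multilevel clusters of the 4 classes, the genes whose log2(CPM + 1) levels were most like a receptor's were found by Pearson's r among 24046 genes. The clusters share libraries and depth, so r is a description. *Tlr13* was most like *Pilrb1* (r = 0.993), *Adamdec1* and *Fcgr1*, and *Tlr7* like *Gpr65* (r = 0.984) and *Tmem273*. *Tlr8* was most like *RP23.425N17.3* (r = 0.984), *Klra2* and *Clec4a2*, and *Tlr1* like *Marchf1* (r = 0.987), *Fcrl1* and *Ifi209*. For *Tlr6* the nearest were *Arhgap30* (r = 0.93), *Ksr2* and *Pou2f2*, for *Tlr9* *Slc14a1* (r = 0.916) and *Ms4a4a*, and for *Tlr2* *Ripk3* (r = 0.898), *Man2b1* and *Prex1*. The receptors of several classes had lower values, with *Tlr3* nearest to *St3gal4* (r = 0.865), *Dab2* and *Mgat4b*, and *Tlr4* to *Itsn1* (r = 0.829), *Cln6* and *Tbc1d2b*. *Tlr5* was nearest to *Gm38079* (r = 0.862), *Mir2139* and *Pls1*.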

How the data were processed

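Single cells had been sequenced by Smart-seq2 (single reads, no molecular identifiers). Per the labels, the authors used Bowtie, Bowtie2, featureCounts and Subread on GRCm38/mm10, with no versions given, and deposited 1 table of raw read counts per gene and cell together with class, annotation and cluster labels. How reads with several matches and strand were treated is not given in the sources used here. From these counts 92 spike-in rows were left out, and the counts of each class or cluster were added up within each sex pool, with at least 5 cells per sum in clusters. CPM is of the summed counts, and CPM per kb divides by exonic length.

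Sums were tested with edgeR 4.0.16 (quasi-likelihood, TMM, filterByExpr; limma 3.58.1, R 4.3.3), and p-values were adjusted by Benjamini-Hochberg over all genes tested. The members are all 10 receptors named; of the pathway list, all accessory receptors, chaperones and adaptors and up to 3 called genes of each other group are named, and for likeness the 3 genes of highest r, of which some are not reported here. Members and lists were chosen with earlier results of these data known. Alternatives were DESeq2 1.42.0, no filter, thinning each cell to 50000 counts, a replicate block, sums per plate with the plate as a block, leaving out each pool, at least 10 cells per sum, and leaving out cells with at least 20 counts of a marker of another class. The script was tested on simulated data: for immune cells against the other classes it recovered 56% of 8-fold and 1% of 2-fold changes over 24947 genes, for central vein cells (#e1) against the other endothelial clusters 28% and 1% over 18646 genes, and for #i5 against Kupffer clusters 1% and 0% over 19111 genes. Intervals on shares are exact (Clopper-Pearson). Totals per pool ranged from 6399550 to 218419420 counts. Python 3.11.15 with scipy 1.17.1, pandas 2.3.3, numpy 2.4.6 and matplotlib 3.10.9 was used for the rest.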

Additional observations from a re-analysis of the deposited data

How the results depend on the processing

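The 8 receptors higher in immune cells stayed 8 or became 7 under every alternative run; *Tlr4* was lost without the female immune pool, without the female endothelial pool and within plates, and *Tlr2* without cells holding RNA of another class. DESeq2 called 3 receptors for endothelial cells in place of 0, 6 for mesenchymal and 5 for epithelial cells in place of 3 each, and over all genes it called 18.7%, 17.8% and 23.3% in place of 8.28%, 11.8% and 12.4%. With no filter on low counts the counts were 2 for endothelial and 5 for epithelial cells. Without cells holding RNA of another class they were 1, 1 and 0 for endothelial, mesenchymal and epithelial cells, and 14 over the pairs of classes. Within plates 1 mesenchymal call was made, and without the plate of most female immune cells, an alternative chosen after seeing the data, 1 endothelial call. Leaving out 1 pool in turn gave 7 to 8 calls for immune, 0 to 1 for endothelial, 1 to 3 for mesenchymal and 2 to 3 for epithelial cells, 17 to 20 over the pairs and 0 between the sexes. A single mesenchymal call (*Tlr1*) was left without the male immune pool, without either mesenchymal pool and without the female epithelial pool. The endothelial call was *Tlr5* without either immune pool, *Tlr7* without the male mesenchymal pool and *Tlr2* without the female epithelial pool. Where 2 epithelial calls were left they were *Tlr2* and *Tlr5*.

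In the cluster comparisons, immune clusters (1 call) gave 3 calls by DESeq2 and 0 when thinned, without that plate, with the replicate block and with at least 10 cells per sum. Immune community clusters (2) gave 4 by DESeq2, 1 when thinned, 1 without cells holding RNA of another class, 0 without that plate and 0 with the replicate block. Endothelial clusters (1) gave 0 by DESeq2, 3 with no filter, 0 when thinned, 2 without cells holding RNA of another class and 2 with at least 10 cells per sum, where *Tlr9* in lymphatic cells turned to a log2 difference of -2.92. Mesenchymal clusters (2) gave 4 by DESeq2, 6 with no filter, 1 when thinned, 1 without cells holding RNA of another class, 0 with the replicate block and 1 with at least 10 cells per sum. For cholangiocytes both calls were lost (0) without cells holding RNA of another class. The cause of these changes was not tested. DESeq2 gave no adjusted p for some members, up to 36 of 70 tests in mesenchymal clusters. Leaving out a pool in the cluster comparisons, the block in epithelial clusters and at least 10 cells per sum in community clusters left no residual degrees of freedom and gave no value.

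The replicate number is the sex of the pool. Same-numbered pools of 2 classes had deviations correlated from 0.099 to 0.169, so not every pair passed 0.1. In the class comparisons the replicate block left every count of calls within 1.5 times. Of the fold changes of called receptors under alternatives, 496 kept their side of the threshold, 103 lost the call and 1 reversed. At 20 counts or after thinning, 76 shares of cells moved outside their interval and 4 did not. Low counts limit every statement on *Tlr1*, *Tlr6*, *Tlr7*, *Tlr8*, *Tlr9* and *Tlr13* outside immune cells and on *Tlr5* outside epithelial cells. In epithelial cells *Tlr5* rests on 28 of 397 cells.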
